A study of Rattus norvegicus with 6 samples.

Results

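The miR-200 family is a set of 5 closely related microRNAs (miRNAs), here rno-miR-200a, rno-miR-200b, rno-miR-200c, rno-miR-141 and rno-miR-429. A probe was taken as a member when the rat name in the scanner files was one of these, with or without an arm suffix, and star strands were left out. This gave 5 of the 679 rat-named probes, among 5560 miRNA probes on each array. The series compared kidney RNA from 3 control rats with that of 3 rats given aristolochic acid (AA), a plant toxin that harms the kidney, with 1 array per rat. All 6 animals were male Big Blue rats, a Fisher 344 line that carries a reporter transgene for scoring mutations, and were 6 weeks old at the start. The AA rats received the sodium salt at 10.0 mg/kg by gavage, 5 times a week for 12 weeks, and were killed 1 day after the final dose. The control rats are labelled untreated, and the labels name no vehicle for them.

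The family is known for holding cells in the epithelial state. Its members bind the mRNAs of Zeb1 and Zeb2, transcription factors that repress E-cadherin, and the Zeb factors in turn repress the family's own genes. In the kidney these miRNAs are found mainly in tubule epithelium, and they are widely studied in tubule injury and fibrosis, where epithelial cells lose their junctions.

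The mature sequences are shown first because the members differ by so few bases that the sequence decides what each probe can read. They are the probe targets in the scanner files, 5′ to 3′, with the seed (bases 2 to 8, the part that pairs with a target mRNA) in capitals.
rno-miR-200a: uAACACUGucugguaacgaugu
rno-miR-141: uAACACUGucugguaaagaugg
rno-miR-200b: uAAUACUGccugguaaugaugac
rno-miR-200c: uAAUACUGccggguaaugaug
rno-miR-429: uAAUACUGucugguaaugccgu
The members fell into 2 seed groups, AACACUG in miR-200a and miR-141 and AAUACUG in miR-200b, miR-200c and miR-429. RefSeq (GRCr8) lists the mature forms of miR-141 and miR-200c with exactly these letters, and the other targets were each found once in the RefSeq hairpin of the same name. Positions below are counted from 1 at the 5′ end. From miR-200b to miR-200c the first 21 bases differed by U11G alone, an identity of 95.2%. From miR-141 to miR-200a the differences were A17C and G22U, an identity of 90.9%. Across seed groups the identity was 77.3% to 81.8%. Within the AAUACUG group miR-429 was no closer, at 81.8% to miR-200b and 81.0% to miR-200c.

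The 5 hairpins lie at 2 places in the rat genome (GRCr8), all on the minus strand. The first holds 3 hairpins within 1908 bases of chromosome 5, with Mir429 at chr5:171929682-171929766, Mir200a at chr5:171930717-171930805 and Mir200b at chr5:171931495-171931589. This cluster lies inside the span of Ttll10, a protein-coding gene for a tubulin ligase-like enzyme, and of the long non-coding RNA LOC106182250. The other holds Mir141 at chr4:159209525-159209618 and Mir200c at chr4:159209965-159210033, within 509 bases of chromosome 4. It lies between the protein-coding genes Phb2, a prohibitin of the mitochondrial inner membrane, and Ptpn6, a tyrosine phosphatase of blood cells. Seed and genome position therefore cut across each other, since each cluster holds a member of either seed group.

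The arrays gave a scanner signal for 4 of the 5 members. The bar for being well above background was the array's empty-spot median plus 3 robust SDs (defined here, not by the study). The probes of miR-200a, miR-200b, miR-200c and miR-429 did so on 6 of 6 arrays, and the probe of miR-141 on 0 of 6. The same 4 members reached the study's intensity threshold of 32 on all 6 arrays in the authors' deposited table, so none of them was tested through 1 group alone. For miR-141 the deposited values ran from 2.59 to 9.19, and it was not tested.

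One array stood apart. AA replicate 20 was dim, with 66.8% of tested probes well above background against 84.9% to 97.9% on the other arrays. Before normalization, the net signal of miR-200b, the intensity minus the empty-spot median, was 4202 for control replicate 13, 2419 for replicate 14 and 1888 for replicate 15. For AA replicates 19, 20 and 21 it was 5554, 560 and 2810. The net signal of miR-429 was 36.8 on AA replicate 20 and 179 to 964 on the other 5 arrays. AA replicate 20 was the lowest of the 6 arrays for each of the 4 detected members before normalization, so values with and without it are given below. The members' duplicate spots differed within an array. Over 24 pairs, 4 members on 6 arrays, the median ratio of the brighter to the dimmer spot was 1.27. The highest was 1.84, for miR-200a on AA replicate 20. That ratio compares single spots within an array before normalization. The folds between AA and control given below compare normalized group means over 3 arrays each, so the sizes cannot be set against each other. Whether spot differences played a part in those folds was not tested.

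No member passed the test between AA and control. With limma over 1132 tested probes, 0 of 4 tested members had an adjusted p under 0.05, against 0.177% of all tested probes (2 of 1132), and 0 of 4 had an unadjusted p under 0.05, against 4.95%. The normalized signals of 3 members were higher on average in AA and that of miR-429 was not. The median log2 change of the 4 members was 0.356, and that of all tested probes was -0.053. In 2 of 4 members every AA array lay above every control array, which was the case for 4.42% of all tested probes, while 5.57% lay the other way round. The exact permutation test cannot give less than 0.1 with 3 arrays against 3. Labels give each array its own sample number but name no litter or cage, so p-values measure the spread between these 6 arrays.

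miR-200a, which carries the AACACUG seed and is read from the chromosome 5 cluster, had the highest change of the 4. Control replicates 13, 14 and 15 had normalized log2 signals of 8.80, 8.76 and 8.65. AA replicates 19, 20 and 21 had 8.97, 9.48 and 9.52. The groups did not overlap, with AA replicates 20 and 21 well above the rest and AA replicate 19 close to the controls. The change was 0.58 on the log2 scale (SE 0.27, limma, adjusted p = 0.885), a fold of 1.50 with a 95% interval of 0.971 to 2.31. The exact two-sided permutation p was 0.1, the smallest it can be. Of the 1132 tested probes, 85 had a higher change. Without AA replicate 20 the log2 change was 0.53.

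miR-200c, the chromosome 4 member with the AAUACUG seed, was the other member whose groups did not overlap. Its normalized log2 signal ran 8.76, 9.10 and 8.98 over control replicates 13, 14 and 15. Over AA replicates 19, 20 and 21 it ran 9.17, 9.44 and 9.39. The gap between the lowest AA array and the highest control array was smaller than the spread within either group. The log2 change was 0.39 (SE 0.25, limma, adjusted p = 0.885), a fold of 1.31 with a 95% interval of 0.875 to 1.96. The exact two-sided permutation p was again 0.1. Without AA replicate 20 the log2 change was 0.36.

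miR-200b, which shares 20 of its first 21 bases with miR-200c, had a normalized log2 signal of 10.88 in control replicate 13, 11.08 in replicate 14 and 11.21 in replicate 15. AA replicate 19 had 11.20, replicate 20 had 11.35 and replicate 21 had 11.60. The groups overlapped, but only because control replicate 15 lay just above AA replicate 19. The log2 change was 0.32 (SE 0.25, limma, adjusted p = 0.885), a fold of 1.25 with a 95% interval of 0.826 to 1.89, and the exact two-sided permutation p was 0.2. Without AA replicate 20 the log2 change was 0.34.

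miR-429, the third member of the chromosome 5 cluster, had a normalized log2 signal of 8.55 on control array 13, 8.43 on array 14 and 8.36 on array 15. On AA arrays 19, 20 and 21 it was 8.68, 7.92 and 8.67. AA replicates 19 and 21 lay above every control, and AA replicate 20 lay below every control. The log2 change was -0.02 (SE 0.30, limma, adjusted p = 0.969), with an interval from a fold of 0.605 to 1.60. A change this near 0 had no settled direction. Among the fits that left out an array, it moved most without AA replicate 20, where the log2 change was 0.25 (limma, adjusted p = 0.763). Without control replicate 13 it was 0.03, and some other ways of scaling all 6 arrays also put it above 0. With no normalization it was -0.387.

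miR-141, the second chromosome 4 member, gave normalized log2 values of 6.08 to 6.19 on the control arrays and 6.12 to 6.26 on the AA arrays. None of these was well above background, so they hold no order and no fold is given. In a whole piece of kidney, fewer cells that make a miRNA and less of it per cell cannot be told apart, for any member.

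**Figure D1:**
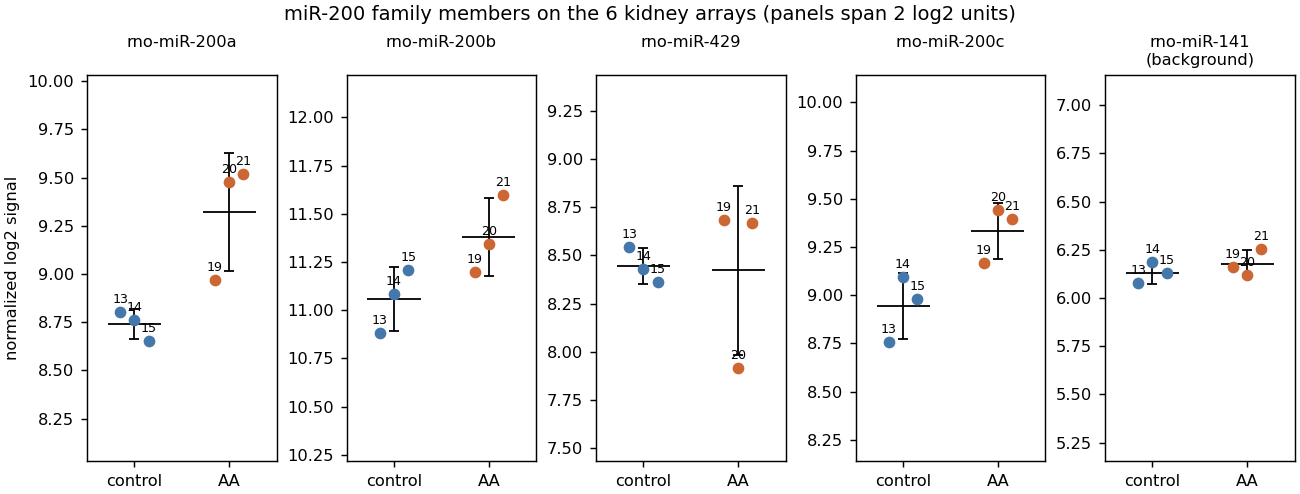
Normalized log2 signal (y axis) of each of the 5 members on the 3 control and 3 AA arrays. Points are arrays with their replicate numbers, and lines and bars are means with SD. AA lies above control without overlap for miR-200a and miR-200c, AA replicate 20 is lowest for miR-429, and miR-141 lies between 6.08 and 6.26 on every array.

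**Figure D2:**
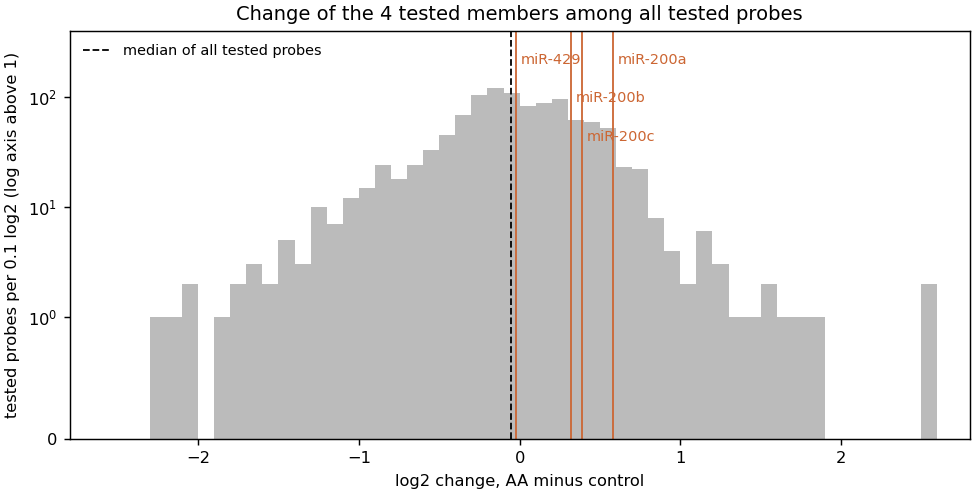
Histogram of the log2 change, AA minus control (x axis), of the 1132 tested probes, with the y axis counting probes on a log scale above 1. Solid lines mark the 4 tested members, at -0.02, 0.32, 0.39 and 0.58, and the dashed line is the median of all tested probes, at -0.053.

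The members of each cluster were also compared as a group, without a test, because the members were chosen together. For each array, the mean of the centred log2 signals of miR-200a, miR-200b and miR-429 was set against that of miR-200c and miR-141, each member being centred on its own mean over the 6 arrays. On control arrays 13, 14 and 15 this difference was 0.079, -0.133 and -0.060. On AA arrays 19, 20 and 21 it was 0.037, -0.113 and 0.189. The group means were -0.038 ± 0.108 (SD, n = 3) in control and 0.038 ± 0.151 in AA, a gap of 0.075. The gap moved with single arrays, to 0.155 when AA replicate 20 was left out, 0.136 for control replicate 13, 0.024 for control replicate 14 and -0.001 for AA replicate 21. The chromosome 4 mean rested in equal part on miR-141, which was at background. With miR-200c alone, a choice made after the values were seen, the gap was -0.096 and ran from -0.175 without AA replicate 21 to 0.020 without AA replicate 20. Its sign thus depended on which members and arrays were counted.

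Grouped by seed in place of position, and without miR-141, the split ran between miR-200a and the 3 AAUACUG members. The difference, AAUACUG members minus miR-200a, was 0.023, 0.210 and 0.296 on control arrays 13, 14 and 15. On AA arrays 19, 20 and 21 it was 0.149, -0.475 and -0.203. The lower AA values came from arrays 20 and 21, and AA replicate 19 lay within the control range. The gap was -0.353 with all arrays and -0.218 without AA replicate 20. With miR-141 counted beside miR-200a it was -0.085, and 0.006 without AA replicate 20.

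**Figure D3:**
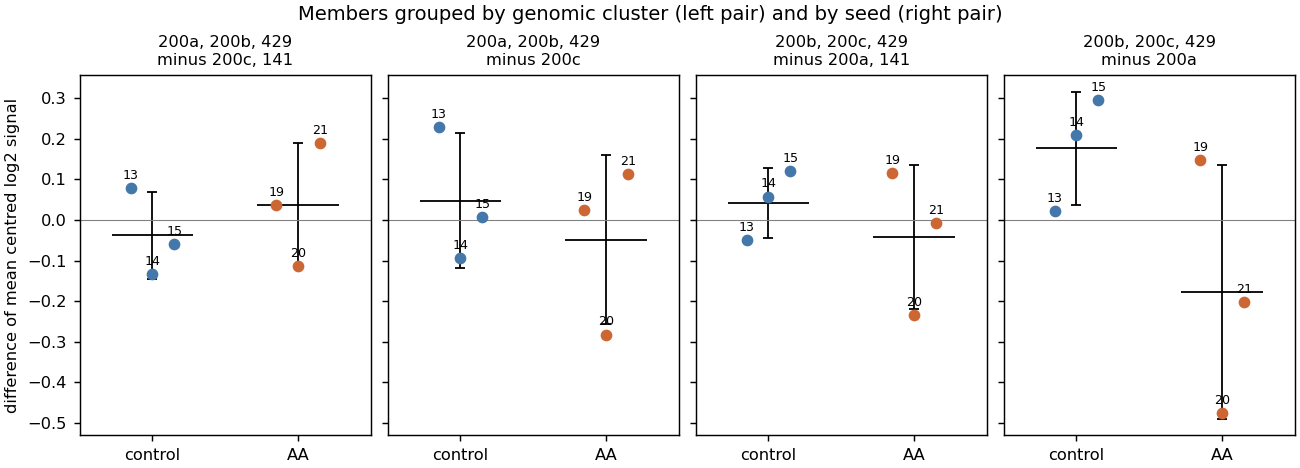
Difference between the mean centred log2 signals (y axis) of members grouped by genomic cluster, in the left pair of panels, and by seed, in the right pair, with and without miR-141. Points are the 6 arrays, and lines and bars are group means with SD. The groups overlap in all 4 panels, with gaps of 0.075, -0.096, -0.085 and -0.353.

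Across the 6 arrays, the profiles of miR-200a, miR-200b and miR-200c ran together, with Pearson's r of 0.79 to 0.87 between pairs, and that of miR-429 did not, with r of -0.328 to -0.058. Without AA replicate 20 the pairs with miR-429 had r of 0.398 to 0.759. These are descriptions over 6 arrays that share the group difference and the normalization. Among the other rat-named tested probes, the 5 with the highest r to the mean profile of the 4 detected members were rno-miR-199a-3p (0.951), rno-miR-30c-2* (0.931), rno-miR-214 (0.914), rno-miR-34a (0.885) and rno-miR-195 (0.839). Their log2 changes were 0.74, 0.16, 0.72, 2.58 and 0.38 in that order. Of these, rno-miR-34a, a p53-induced miRNA, passed the test in limma (SE 0.25, adjusted p = 0.00864), and the other 4 had adjusted p from 0.871 to 0.885. The ranking depended in part on the dim array. Without AA replicate 20 the highest r was that of rno-miR-31 (0.99). rno-miR-199a-3p (0.949), rno-miR-30c-2* (0.937), rno-miR-199a-5p (0.923) and rno-miR-214 (0.917) came next. rno-miR-34a (0.885) and rno-miR-195 (0.831) were then no longer among the 5 highest.

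The array also carries the family as listed in other species, and the readings of these probes are set beside those of the members. Of 18 such probes, 8 had a target that held the rat target whole or was held by it. Of those, 7 were tested and none passed the adjusted threshold. The mean was higher in AA for 7 of 7, against 519 of 1132 tested probes. The groups did not overlap for 2 of 7, hsa-miR-200b and eca-miR-429, against 4.42% of all tested probes with AA above control. They overlapped for oan-miR-200a, hsa-miR-200c and mdo-miR-200c, so these did not repeat the lack of overlap of miR-200a and miR-200c. The probe oan-miR-200a, with a further base at the 3′ end, changed by 0.43 (log2). For miR-200b, hsa-miR-200b changed by 0.30 and bta-miR-200b by 0.18. For miR-200c, hsa-miR-200c and mdo-miR-200c both changed by 0.43. Such a target matches that of its member over the whole of the shorter one. These probes are therefore taken as repeated readings of the member and not as new evidence.

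The probes nested in miR-429 did not give the same value on AA replicate 20. The 22-base member read 7.92 there, and mdo-miR-429, which lacks 2 bases, read 7.99 against 8.14 to 8.46 in the controls. The 21-base eca-miR-429 read 8.76 on AA replicate 20, above its controls at 8.35 to 8.64, and its log2 change was 0.26 (SE 0.24, limma, adjusted p = 0.885). The 3 probes thus put AA replicate 20 on opposite sides of the controls, and the cause was not tested.

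Probes that differ from a member by a base or so, looked at after their values were seen, were detected in some cases and not in others. The probe dre-miR-141 differs from miR-200a only by U22C and was well above background on 6 of 6 arrays. The rat miR-141 probe, which differs from miR-200a at positions 17 and 22, was so on 0 of 6. The probes mdo-miR-141 and ppa-miR-141 differ from rat miR-141 by G22C, and ppa-miR-141 also lacks the first base. Each was well above background on 3 of 6 arrays, and ggo-miR-141, whose target is held by that of rat miR-141, on 1 of 6. Of these, mdo-miR-141 was tested, with a deposited value of 38.1 on AA replicate 19 alone reaching 32, and its log2 change was -0.07. The probe hsa-miR-429 differs from rat miR-429 by U17A and G18A, and it too was well above background on 0 of 6 arrays. A further probe, pma-miR-429, differs by A15U, C19U and U22C and was so on 0 of 6, while dre-miR-429b, which differs by U9C and G21A, was so on 6 of 6. These few probes differ at several positions at once, and no single position was tested. The pair miR-200b and miR-200c differ at position 11 alone, and whether either probe also read the other miRNA was not tested. Among 6 probes that hold the first 21 bases of miR-200b, including pma-miR-200b, log2 changes ran from -0.06 to 0.32, and for pma-miR-200b, the lowest, the change was 0.305 without AA replicate 20.

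**Figure D4:**
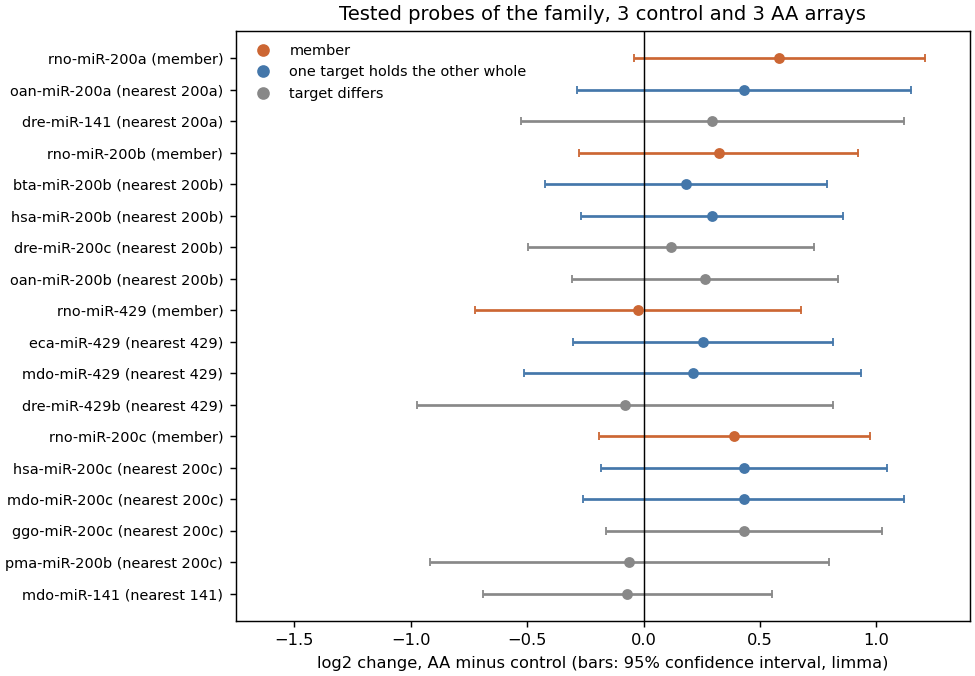
Log2 change, AA minus control (x axis), with 95% confidence intervals from limma for the 18 tested probes of the family. Colours mark the rat members, the probes whose target holds or is held by a member's, and the probes that differ; each is grouped with its nearest member, and pma-miR-200b, 1 base from miR-200c, also begins with the first 21 bases of miR-200b. All 18 intervals include 0, and 14 of the 18 changes are above 0.

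The opposite arms of the hairpins gave low signals. The deposited values of rno-miR-200a*, rno-miR-200b*, rno-miR-200c* and rno-miR-141* stayed under 32 on all 6 arrays, with rno-miR-200b* at 9.16 to 31.8 and well above background on 5 of 6 arrays. On the opposite strand RefSeq places the hairpins of Mir3548 over Mir200a and of Mir3575 over Mir200c, and neither rno-miR-3548 nor rno-miR-3575 was well above background on any of the 6 arrays.

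The comparison lists place the family beside other miRNAs of the kidney's cell types. Of 14 probes for kidney epithelium miRNAs, 9 were well above background on all 6 arrays, so only part of the list was present throughout. rno-miR-10a-3p was well above background on 5 of 6 arrays, rno-miR-204 on 2 and rno-miR-30b-3p on 1. rno-miR-211 and rno-miR-215 were so on 0 of 6. In limma, none of 10 tested passed the adjusted threshold, 1 of 10 was higher in AA, and the median log2 change was -0.40, against -0.053 over all tested probes. The highest log2 change was that of rno-miR-10a-3p (0.03) and the lowest that of rno-miR-194 (-0.82), a miRNA of tubule and gut epithelium. These directions rested on the dim array: without AA replicate 20, 8 of 10 were higher in AA, the median was 0.211, and rno-miR-10a-3p and rno-miR-194 stood at 0.285 and -0.532. The list's summed deposited intensity was 7977 on AA replicate 20, 21420 and 23808 on AA replicates 19 and 21, and 19446 to 21129 in control.

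Of 7 other epithelial miRNAs, 6 were tested, none passed, 4 were higher in AA and the median log2 change was 0.51, or 0.28 without AA replicate 20. Their summed deposited intensity was 281 to 371 in control, and 359, 866 and 407 on AA replicates 19, 20 and 21. rno-miR-205, a miRNA of stratified epithelium, had the highest (1.20) and rno-miR-375, a miRNA of endocrine and secretory cells, the lowest (-0.64). The value of rno-miR-205 rested most on the dim array, AA replicate 20, with a log2 signal of 8.87 there, 7.09 and 7.32 on the other AA arrays and 6.13 to 7.25 in the controls. Its change was 0.742 without that array.

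Of 9 probes for mesenchyme and fibrosis miRNAs, 8 were tested, none passed and 6 were higher in AA, with a median log2 change of 0.25. That median was 0.642 without AA replicate 20 and 0.036 without AA replicate 21. The highest was that of rno-miR-21, a miRNA induced in injured kidney (1.56), and the lowest that of rno-miR-29c, which targets collagen mRNAs (-0.57). The value of rno-miR-29c rested on AA replicate 20, without which it was -0.013, and that of rno-miR-21 was 0.92 without AA replicate 19. The summed deposited intensity of this list was 5988 to 6762 in control and 8245 to 14878 in AA. That sum was therefore higher in AA together with 3 of the 4 detected family members, and the list's part in their values was not tested. A sum of intensities weighs bright miRNAs most, so it does not show a rise across the list. The log2 signal of rno-miR-21 was 13.55, 11.18 and 11.92 on AA replicates 19, 20 and 21. In control it was 10.13 to 10.93. By count the list was less steady. Without AA replicate 21, control replicate 13 or control replicate 14, 4 of 8 were higher in AA, and 6 or 7 of 8 without any of the others.

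Among leukocyte miRNAs, 2 of 5 probes were tested and none passed, with rno-miR-150 of lymphocytes at 0.34 and rno-miR-146a at -0.78. rno-miR-142-3p and rno-miR-142-5p, which mark blood cells, were well above background on 0 of 6 arrays, and the list's summed intensity was 1774 to 2398 in control and 1311 to 1938 in AA. The endothelial rno-miR-126 had a log2 change of -0.28, but 0.33 without AA replicate 20, the only AA array below the controls. Its deposited intensity was 1210 to 1437 in control and 603 to 1646 in AA. The erythroid rno-miR-451 had one of -0.34 (-0.175 without AA replicate 20), with the list at 51.3 to 66.3 in control and 8.4 to 75.7 in AA.

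How far the direction of a member depended on the scaling of the arrays was examined last. The change of miR-200a was above 0 in 19 of 19 alternatives, those of miR-200b and miR-200c in 18 of 19, and that of miR-429 in 6 of 19. Of the 19, however, 4 alter only the filter or the test and leave the change itself as it is. The median of spots could not move it either, since each member has 2 spots, whose mean and median are equal. The sizes moved more than the signs: miR-200a was 0.017 without normalization against 0.583 as reported, and miR-200b was 0.069 with median scaling against 0.322. The exception for miR-200b and miR-200c was the fit with no normalization, where the median of all tested probes also moved, to -0.323. Relative to that median, miR-200a stood at 0.34, miR-200c at 0.14, miR-200b at -0.02 and miR-429 at -0.06. No member reached an adjusted p under 0.05 in any of these fits, and the lowest was 0.092, for miR-200a with array weights in limma.

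**Figure D5:**
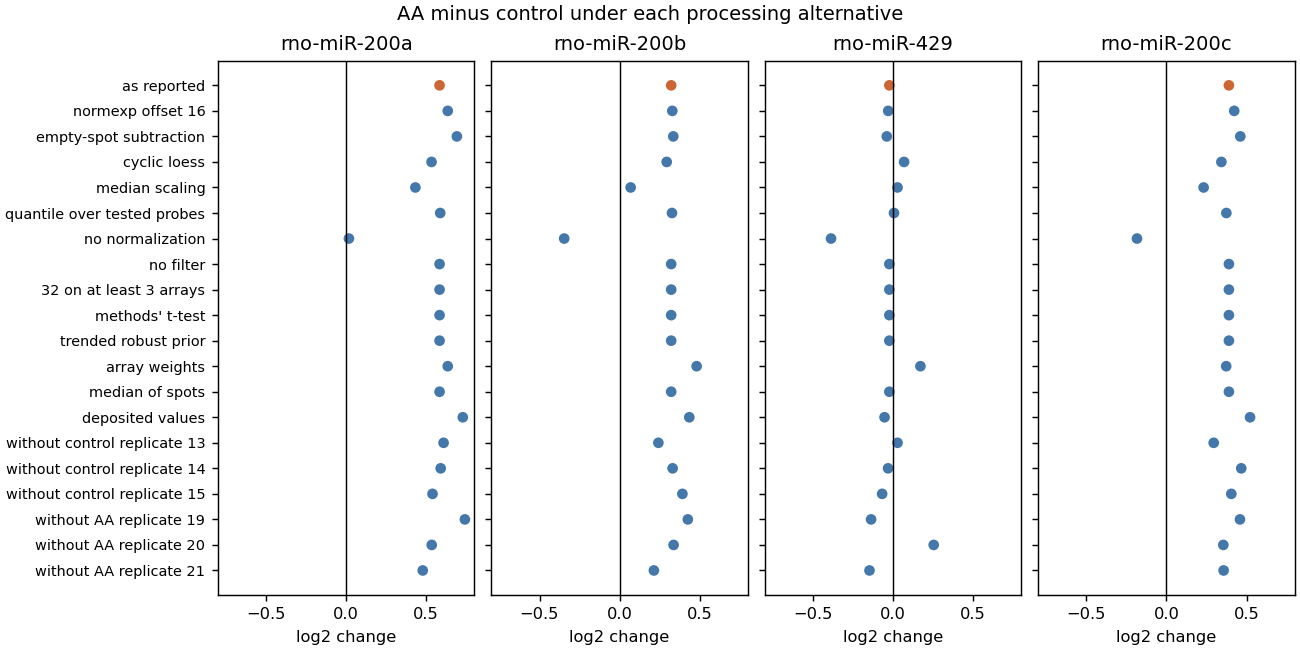
Log2 change, AA minus control (x axis), of the 4 tested members under each processing alternative (rows), with the reported value in orange. miR-200a is above 0 throughout, miR-200b and miR-200c fall below 0 only without normalization, and miR-429 lies on either side of 0.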

How the data were processed

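Kidney RNA of 3 control and 3 AA rats was measured on custom vertebrate miRNA arrays in 1 colour. The deposited scanner files hold the median pixel intensity of each spot on a linear scale, neither background-corrected nor normalized. The authors' deposited table holds intensity after background subtraction and a LOWESS filter, with a threshold of 32. It was used for that filter and as an alternative.

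Scanner intensity was corrected with normexp (offset 50) over all spots, control and empty spots were left out, log2 signals were quantile-normalized, and each probe took the mean of its spots. Testing needed a deposited value of 32 or more on any array (for Candidate_84, which that table lacks, a net scanner signal of that size). This left 1132 probes. The fit used limma 3.58.1 (lmFit, eBayes; R 4.3.3), and p-values were adjusted by Benjamini-Hochberg with a threshold of 0.05. The offset understates fold changes of dim probes. The number of arrays and the signal over background limit the precision. The fit was tested on simulated data.

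Groups and replicate numbers came from the labels. Replicate numbers are not shared between groups and no batch is named. The members, the lists and the named miRNAs (all members, probes with nested targets, star strands, the 5 most alike, and the extremes of each list) were chosen with earlier results of these data known. Probes that differ from a member, the grouping without miR-141, and fits of the seed groups and lists that omit 1 array were added after the values were seen. Sequences and positions came from the scanner files and RefSeq (GRCr8). Alternatives covered background correction, scaling, filter, test, array weights, the median of spots, use of the deposited values, and fits that omit 1 array. The study names miRBase as the source of the standard probes.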

Additional observations from a re-analysis of the deposited data

How the results depend on the processing

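No paired analysis was possible because the groups share no replicate numbers. None of the 4 tested members passed the adjusted threshold under any alternative. The count over all probes, 2 as reported, was 0 with cyclic loess (70 at an unadjusted p under 0.05 in limma), 0 with median scaling (29) and 0 with no normalization (5), 44 with array weights, and 0 to 3 when an array was left out. The count was 0 without any one of control replicates 13, 14 and 15 and AA replicates 19 and 21 (20 to 129 at an unadjusted p under 0.05), and 3 without AA replicate 20.

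Without normalization the log2 change was -0.346 for miR-200b, -0.184 for miR-200c and -0.387 for miR-429. That of miR-429, -0.023 as reported, was 0.069 with cyclic loess, 0.028 with median scaling, 0.006 with quantile scaling over the tested probes and 0.171 with array weights, and ran from -0.147 to 0.254 when an array was left out. The cause was not tested. Median scaling moved the median of all tested probes by 0.145, empty-spot subtraction by -0.106 and no normalization by -0.27.

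The gap between the clusters, 0.075 as reported, was -0.063 with empty-spot subtraction, -0.134 with median scaling, -0.134 with no normalization and -0.096 without miR-141, and ran from -0.001 (without AA replicate 21) to 0.155 (without AA replicate 20) when an array was left out. The gap between seed groups, -0.085 with all members, was -0.353 without miR-141, and ran from -0.146 (without AA replicate 19) to 0.006 (without AA replicate 20). The settings without miR-141, and the seed groups without an array, were chosen after seeing the data. At an unadjusted p under 0.05, 2 members passed with the methods' t-test, 2 with no filter, 2 with array weights, 1 with cyclic loess and 1 without AA replicate 19.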
